A study of Mus musculus with 15 samples.

Results

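The core pluripotency factors followed here are the transcription factors Pou5f1 (Oct4), Sox2, Nanog and Sall4 and the chromatin-associated factor Utf1. They were chosen by gene symbol, 5 of the 55228 genes with a value in every library. The rule itself uses no measured value, but it was written with earlier results of these data known. RNA-seq was used to follow them in 81K1, a mouse embryonic stem cell line made from OG2, that expresses an shRNA against Smarcb1 from the Rosa26 locus when doxycycline is given. All 5 groups came from this line, carried the same shRNA cassette and were grown on gelatine in medium with serum and LIF. Untreated cells at 48 h and 240 h formed the groups 48 h ctrl and 240 h ctrl. Cells given 1 µg doxycycline per ml every day formed the groups 48 h kd, 72 h kd and 240 h kd, with 3 libraries in each of the 5 groups. The 72 h cells have no control of their own among the 15 libraries and were compared with 48 h ctrl. A doxycycline-treated line without the shRNA was not analysed here, so an effect of doxycycline itself and an effect of the knockdown cannot be told apart. A single line was used, and nothing in the labels says whether replicates came from separate cultures, so p-values measure the spread between these libraries.

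In mouse embryonic stem cells Pou5f1, a POU-domain factor, and Sox2, an HMG-box factor, bind DNA side by side at joint octamer and Sox elements, and with the homeodomain factor Nanog they occupy each other's regulatory regions. Sall4 is a zinc-finger factor that interacts with these factors and with the NuRD complex, and Utf1 is a target of Pou5f1 and Sox2 that acts on chromatin. Smarcb1 belongs to the core of the BAF complexes, which remodel chromatin. In embryonic stem cells the form of this complex called esBAF is found at many of the sites these factors bind. OG2 cells carry a green fluorescent protein reporter under Pou5f1 regulatory sequence, and reads from any Pou5f1 sequence in the reporter cannot be told apart from reads of the gene itself.

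Library totals recovered from the deposited values lay between 11074998 and 14515300 reads. Smarcb1, the shRNA target, lay between 3.31 and 3.93 FPKM in the 6 ctrl libraries and between 0.503 and 0.820 FPKM in the 9 kd libraries, so every library lay on the side of its label. All 6 markers used to check the cell type were present in every library, from Esrrb at 2.92 FPKM or more (at least 6308 reads) to Dppa5a at 640.9 FPKM or more. One library stood apart: mitochondrial reads made up 2.53% of 48 h kd replicate 2, whereas the range elsewhere was 0.507% to 1.95%. Results that turn on it are given with and without it. The bulk libraries cannot tell fewer cells of a type from less RNA per cell.

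Promoter sequence is shown for Sox2 and Nanog, because the values of both, given further on, were lower in kd at 48 h and 240 h and higher at 72 h. The windows are the 250 bases before a RefSeq transcript start, from GRCm38.p6, plus strand, 5′ to 3′. For Sox2 that start lies upstream of the gene start in the files' annotation. They are chr3:34649745-34649994 for Sox2 and chr6:122707239-122707488 for Nanog. Capitals mark every match, on either strand, to ATGCAAA, the core of the octamer element that POU factors read, and to CATTGT, a Sox element.
Sox2: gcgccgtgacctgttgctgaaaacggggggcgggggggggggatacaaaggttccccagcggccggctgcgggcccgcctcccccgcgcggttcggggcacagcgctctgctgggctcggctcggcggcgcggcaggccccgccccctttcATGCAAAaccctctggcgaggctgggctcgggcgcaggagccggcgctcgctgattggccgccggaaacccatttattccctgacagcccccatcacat
Nanog: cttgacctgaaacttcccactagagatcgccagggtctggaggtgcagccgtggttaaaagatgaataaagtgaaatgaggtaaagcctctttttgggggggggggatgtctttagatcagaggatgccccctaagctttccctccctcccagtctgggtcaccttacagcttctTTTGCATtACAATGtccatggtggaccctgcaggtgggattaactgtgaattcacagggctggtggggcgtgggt

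The Sox2 window held 1 octamer match, beginning 99 bases before the start, and no Sox match. The Nanog window held 1 of each, side by side on the minus strand with 1 base between them, and its octamer match began 75 bases before the start. Of 32851 promoter windows of this length in the RefSeq table, 4.12% held the octamer letters, 10.7% the Sox letters, and the 2 that held both in the arrangement seen for Nanog were overlapping windows of Nanog itself. The corresponding windows of Pou5f1 and Utf1 held no match to either. These matches describe letters in a window and do not show binding.

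Pou5f1 (ENSMUSG00000024406.16) lies on chromosome 17 from 35506018 to 35510772 of mm10 (GRCm38), plus strand. Sox2 (ENSMUSG00000074637.7) lies on chromosome 3 from 34650405 to 34652461, plus strand, as a single exon. Nanog (ENSMUSG00000012396.12) lies on chromosome 6 from 122707489 to 122714633, plus strand, and overlaps no other listed gene. Sall4 (ENSMUSG00000027547.17) lies on chromosome 2 from 168748332 to 168767943, minus strand. Utf1 (ENSMUSG00000047751.9) lies on chromosome 7 from 139943789 to 139945112, plus strand, and overlaps no other listed gene.

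Reads had been counted over whole gene spans without regard to strand, so overlapping genes share reads. The antisense gene Gm19553 lies inside Pou5f1 and was assigned 76.2% to 78.7% as many reads as Pou5f1, which cannot be divided between them. Sox2 lies inside the long transcript Sox2ot, the rest of which held 1.39 to 2.51 reads per kb in a library, against 2905 to 4820 reads per kb over Sox2. The Sall4 partner Gm14261 held 22 to 72 reads, and the Nanog pseudogenes Nanog-ps1 and Nanog-ps2 held at most 1 read each in any library.

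All 5 factors were among the well-measured transcripts, with 3443 to 18460 reads per gene and library. They took together 0.289% to 0.333% of the reads of a library. FPKM as deposited is per kilobase of the whole gene span, so levels of different genes were compared after division by exonic length instead. On that scale the mean levels in 48 h ctrl were 572 ± 26.2 for Pou5f1, 333 ± 16.1 for Utf1, 325 ± 7.37 for Sox2, 239 ± 5.69 for Nanog and 60.4 ± 1.08 for Sall4 (SD, n = 3, exonic FPKM). Utf1 and Sox2 did not differ beyond their spread in that group. Between the lowest and the highest of the 5 group means, a factor differed by 1.19-fold for Utf1, 1.28-fold for Pou5f1, 1.37-fold for Nanog, 1.40-fold for Sall4 and 1.42-fold for Sox2.

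**Figure D1:**
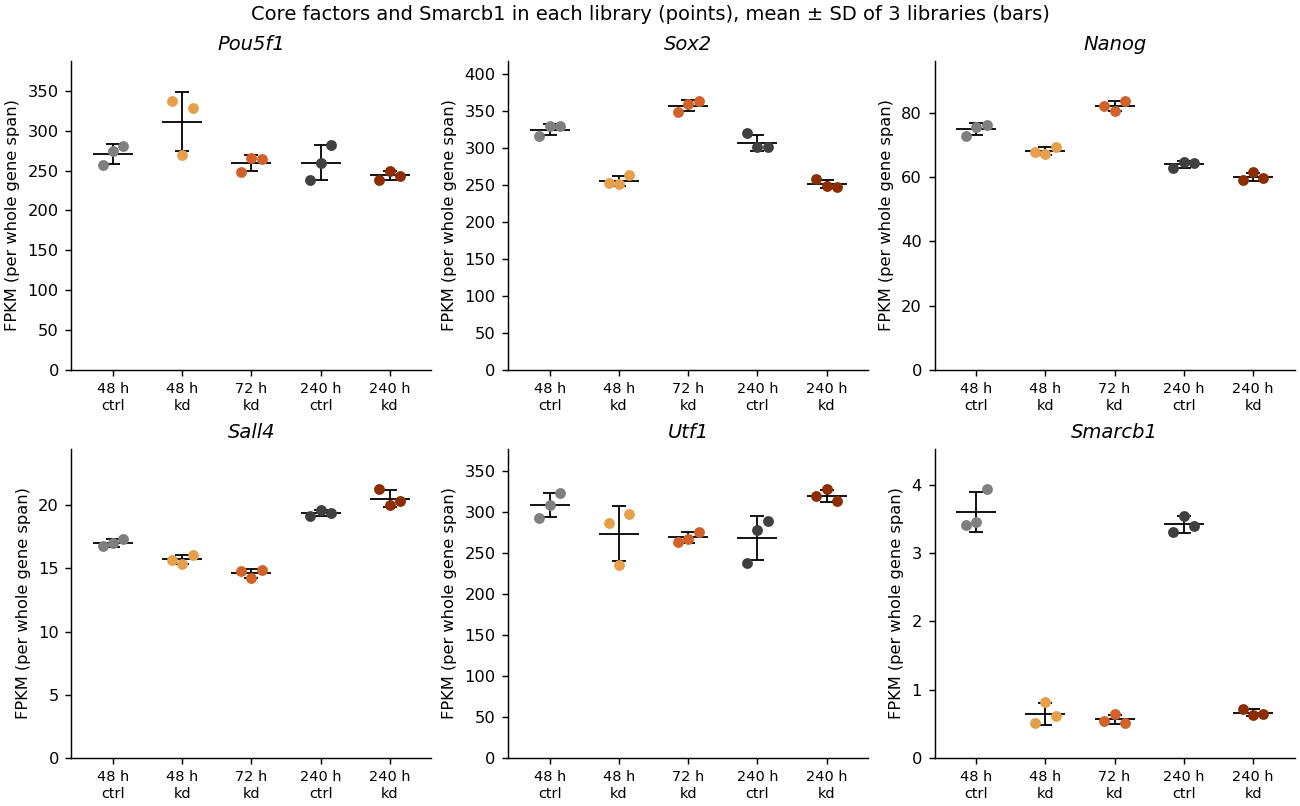
FPKM, per kilobase of whole gene span, of the 5 core factors and of Smarcb1 in each of the 15 libraries. Points are libraries, horizontal bars are means of 3 libraries and vertical bars are SD, with axes starting at 0. Smarcb1 falls in all kd groups, while each core factor stays within 1.42-fold between its lowest and highest group mean.

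The first comparisons asked how far knockdown of Smarcb1 moved the core factors. None of the 5 was called at 48 h, 72 h or 240 h, where a call needs a limma adjusted p under 0.05 and an absolute log2 fold change over 0.58. Of all genes tested, 3.99%, 13.5% and 8.91% were called at these times. With voom on recovered reads none of the 5 was called either, beside 9.22%, 22.6% and 18% of genes. At an unadjusted limma p under 0.05 there were 3, 4 and 3, beside 31.9%, 60.8% and 44.9% of genes. The largest of the 15 log2 fold changes was that of Sox2 at 48 h, -0.35, and the 95% intervals of all 15 lay inside ±0.58, with the widest bound at 0.456 in size. Such an interval was found for 74.9%, 65.7% and 72% of all genes. The median size of the 15 log2 fold changes was 0.14, beside medians over all genes of 0.14, 0.24 and 0.17. By adjusted p alone, 1 factor passed at 48 h, 4 at 72 h and 1 at 240 h, against 16.1%, 55% and 33.8% of all genes. The groups did not overlap for 3 factors at 48 h, 4 at 72 h and 4 at 240 h, which was also true of 39.4%, 64.7% and 50.2% of all genes.

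**Figure D2:**
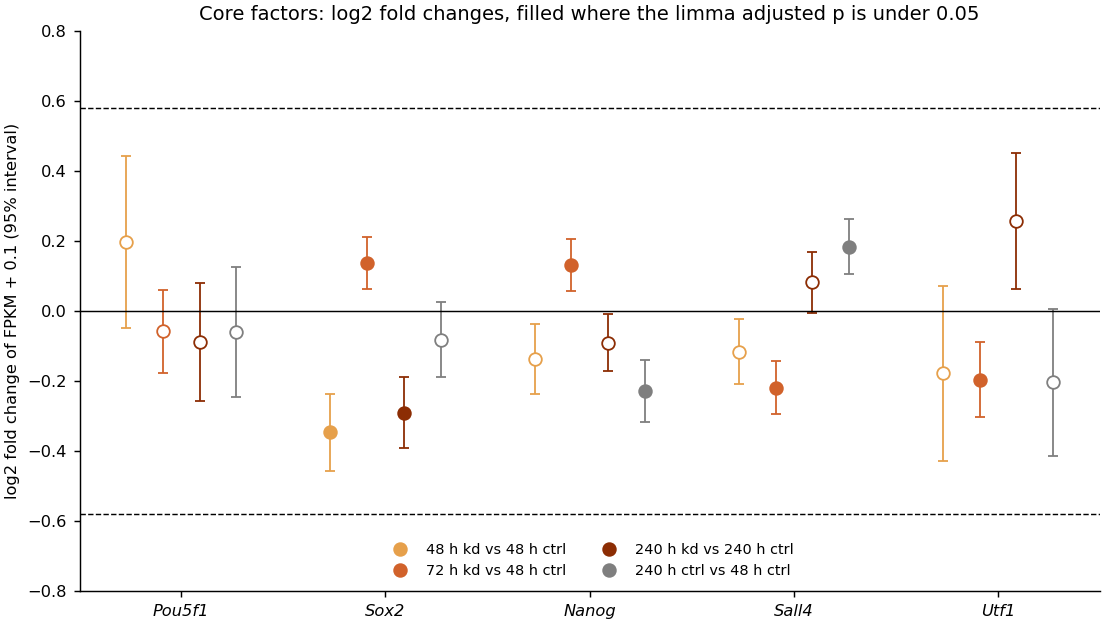
Log2 fold change of FPKM + 0.1 for each core factor in the 3 knockdown comparisons and between the 2 ctrl groups, with 95% intervals from limma. Dashed lines mark ±0.58, filled points have an adjusted p under 0.05, and every interval lies between the dashed lines.

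Pou5f1, the POU factor without which the pluripotent state is not maintained, passed the test in none of the 3 comparisons. Its level was 257, 274 and 281 FPKM in 48 h ctrl and 337, 269 and 328 FPKM in 48 h kd. It was 248, 266 and 265 FPKM in 72 h kd. It was 238, 260 and 282 FPKM in 240 h ctrl and 239, 250.0 and 244 FPKM in 240 h kd. The kd ranges overlapped the ctrl ranges at each time. The log2 fold change was 0.20 at 48 h (95% interval -0.05 to 0.44, adjusted p = 0.235), -0.06 at 72 h (-0.18 to 0.06, adjusted p = 0.341) and -0.09 at 240 h (-0.26 to 0.08, adjusted p = 0.364). The 72 h value became -0.10 when 48 h ctrl replicate 1 was left out and -0.03 when 48 h ctrl replicate 3 or 72 h kd replicate 1 was. The 240 h value became -0.15 when 240 h ctrl replicate 1 was left out and -0.03 when replicate 3 of that group was, and none of these passed. With a GC and span trend removed, the 72 h value was -0.17 and passed (adjusted p = 0.0190). The 48 h value turned on 48 h kd replicate 2, the lowest of its group: without that library the log2 fold change was 0.30 (adjusted p = 0.0257). In the order of group means, 240 h kd, 72 h kd, 240 h ctrl, 48 h ctrl and 48 h kd, each group overlapped its neighbour.

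Sox2, the partner of Pou5f1, was lower at 48 h and 240 h and higher at 72 h, and passed the test by adjusted p each time. Its level was 316, 329 and 329 FPKM in 48 h ctrl and 252, 251 and 263 FPKM in 48 h kd, with no overlap. It was 349, 360 and 363 FPKM in 72 h kd, above every ctrl library. In 240 h ctrl it was 320, 301 and 301 FPKM and in 240 h kd 258, 248 and 248 FPKM, again with no overlap. Sox2 fell by 21.3% at 48 h (log2 fold change -0.35, adjusted p = 0.00736, SE 0.04) and fell by 18.2% at 240 h (-0.29, adjusted p = 0.00437, SE 0.04). It rose by 9.95% at 72 h (0.14, adjusted p = 0.0114, SE 0.03). The 48 h result was lost without 48 h ctrl replicate 2 (log2 fold change -0.34, adjusted p = 0.0510). With no FPKM minimum it was lost at 48 h (adjusted p = 0.0846) and at 72 h (adjusted p = 0.129), and with quantile normalization the 72 h value was 0.06 (adjusted p = 0.0443). The group order was 240 h kd and 48 h kd, which overlapped, then 240 h ctrl and 48 h ctrl, which overlapped, then 72 h kd.

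Reads of Sox2ot outside Sox2 moved in the same order at 48 h, with 996 to 1239 reads in ctrl and 799 to 879 in kd. They numbered 1320 to 1447 in 72 h kd, and at 240 h they numbered 1218 to 1350 in ctrl and 999 to 1124 in kd. Groups of kd and ctrl did not overlap on this count, which is not scaled to library totals, at any of the 3 times. By FPKM, groups did not overlap for 39.4%, 64.7% and 50.2% of all genes. Counting was not strand-specific, and whether these reads belong to Sox2ot or to Sox2 transcripts was not tested.

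Nanog, the homeodomain factor that stabilises self-renewal, showed small differences in the direction of those of Sox2. Its level was 73.0, 75.6 and 76.4 FPKM in 48 h ctrl and 68.0, 67.2 and 69.5 FPKM in 48 h kd. It was 82.1, 80.7 and 83.7 FPKM in 72 h kd. It was 62.8, 64.8 and 64.5 FPKM in 240 h ctrl and 59.1, 61.5 and 59.7 FPKM in 240 h kd. Groups did not overlap in any of the 3 comparisons. Nanog rose by 9.53% at 72 h (log2 fold change 0.13, adjusted p = 0.0128, SE 0.03), a result lost without 72 h kd replicate 3 (0.12, adjusted p = 0.0514). With quantile normalization the 72 h value was 0.21. The log2 fold change was -0.14 at 48 h (95% interval -0.24 to -0.04, adjusted p = 0.0760) and -0.09 at 240 h (-0.17 to -0.01, adjusted p = 0.0845). From the lowest, the group order was 240 h kd, 240 h ctrl, 48 h kd, 48 h ctrl and 72 h kd, and no neighbours overlapped.

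Sall4, the zinc-finger factor, had the lowest level and nearly the opposite order. Its level was 16.8, 16.99 and 17.4 FPKM in 48 h ctrl and 15.7, 15.4 and 16.1 FPKM in 48 h kd. It was 14.8, 14.2 and 14.9 FPKM in 72 h kd. It was 19.1, 19.6 and 19.4 FPKM in 240 h ctrl and 21.3, 20.0 and 20.3 FPKM in 240 h kd. Again no groups overlapped. Sall4 fell by 14.1% at 72 h (log2 fold change -0.22, adjusted p = 0.00209, SE 0.03). The log2 fold change was -0.12 at 48 h (95% interval -0.21 to -0.02, adjusted p = 0.0936) and 0.08 at 240 h (-0.005 to 0.17, adjusted p = 0.127). The groups stood, from the lowest, as 72 h kd, 48 h kd, 48 h ctrl, 240 h ctrl and 240 h kd, with no overlap of neighbours.

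Utf1 passed by adjusted p at 72 h, where it fell by 12.7% (log2 fold change -0.20, adjusted p = 0.0117, SE 0.04). With a GC and span trend removed the 72 h value was -0.36 (adjusted p = 0.000896), and it did not pass in 1 fit of all 15 libraries (adjusted p = 0.0740) or with no FPKM minimum (adjusted p = 0.0665). Its level was 293, 309 and 323 FPKM in 48 h ctrl and 287, 236 and 299 FPKM in 48 h kd, which overlapped. It was 264, 267 and 276 FPKM in 72 h kd, below every 48 h ctrl library. It was 239, 279 and 289 FPKM in 240 h ctrl and 320, 328 and 313 FPKM in 240 h kd, with no overlap. At 48 h the log2 fold change was -0.18 (95% interval -0.43 to 0.07, adjusted p = 0.288), or -0.07 without 48 h kd replicate 2. At 240 h it was 0.26 (0.06 to 0.45, adjusted p = 0.0519), and it passed without 240 h ctrl replicate 1 (0.18, adjusted p = 0.0283) or replicate 3 (0.31, adjusted p = 0.0355). The order of group means ran from 240 h ctrl over 72 h kd, 48 h kd and 48 h ctrl to 240 h kd, and each group overlapped its neighbour.

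The 72 h result depends on the control, since 48 h ctrl stands in for cells of that age. With 240 h ctrl as control, Sox2 (log2 fold change 0.22), Nanog (0.36) and Sall4 (-0.40) passed by adjusted p in the same directions. Utf1 and Pou5f1 were then at 0.008 and 0.0007 on the log2 scale.

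The ctrl groups were compared to see how far the factors differ between 48 h and 240 h without doxycycline. The labels give no batch, so time in culture and a batch cannot be told apart there. None of the 5 was called between 240 h ctrl and 48 h ctrl, where 0.475% of all genes were, and voom called none either, beside 1.36% of genes. At an unadjusted limma p under 0.05 there were 2, beside 26.5% of genes. By adjusted p alone, 3.44% of genes passed and so did Nanog (log2 fold change -0.23, adjusted p = 0.0441, SE 0.04) and Sall4 (0.18, adjusted p = 0.0460, SE 0.03), in opposite directions. With any 1 of the 6 libraries left out neither passed, with Nanog at -0.25 to -0.21 and Sall4 at 0.17 to 0.20, and 2 to 10 genes in all passed by adjusted p in place of 391. The differences of Pou5f1 (-0.06), Sox2 (-0.08) and Utf1 (-0.20) did not pass (adjusted p = 0.659, 0.294 and 0.198). For Nanog this ctrl difference was larger in size than its 3 differences between kd and ctrl, although the gap between them was not tested. Rescaling to TPM moved the median of all genes in this comparison by 0.106 on the log2 scale, and with it Pou5f1 (0.05) and Sox2 (0.03) changed sign.

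The kd groups were then compared along time. From 48 h kd to 72 h kd none of the 5 was called, beside 7.45% of all genes, and by adjusted p 2 factors passed, beside 35.5% of genes. Sox2 rose by 39.7% (log2 fold change 0.48, 95% interval 0.38 to 0.59, adjusted p = 0.00170) and Nanog by 20.4% (0.27, 0.17 to 0.36, adjusted p = 0.00497). Both comparisons with 48 h ctrl share that control, so these values are also the difference between the 72 h and 48 h knockdown effects. At an unadjusted limma p under 0.05 there were 4 factors, both here and from 72 h kd to 240 h kd, beside 47.1% and 64.1% of genes. Voom called none in either, beside 13% and 25.4%. Pou5f1 was at -0.26 (adjusted p = 0.0916), and without 48 h kd replicate 2 it was at -0.36 (adjusted p = 0.00485) and all 5 factors passed.

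From 72 h kd to 240 h kd again none was called, beside 15.7% of all genes, and by adjusted p 4 factors passed, beside 59.5% of genes. Sox2 fell by 29.7% (log2 fold change -0.51, adjusted p = 8.22e-05, SE 0.03) and Nanog by 26.8% (-0.45, adjusted p = 0.000101, SE 0.03). Sall4 rose by 40.1% (0.49, adjusted p = 0.000169, SE 0.03) and Utf1 by 18.9% (0.25, adjusted p = 0.000873, SE 0.03). Pou5f1 was at -0.09 (adjusted p = 0.0813) and passed without 72 h kd replicate 1 (-0.12, adjusted p = 0.0221). Quantile normalization gave -0.27 for Sox2, 0.47 for Utf1 and 0.09 for Pou5f1, which then passed in the opposite direction (adjusted p = 0.0192). Time in culture differs between these groups as well, and there is no ctrl group at 72 h to set beside it.

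An interaction over 12 libraries tested whether the knockdown effect itself differed between times. No factor was called for 240 h minus 48 h, beside 5.82% of genes, and 1 passed by adjusted p, beside 15.6% of genes. That factor was Sall4, whose knockdown effect was 0.20 higher at 240 h on the log2 scale (adjusted p = 0.0160, SE 0.05). For Utf1 the difference was 0.44 (95% interval 0.14 to 0.73, adjusted p = 0.0538), and it passed without 48 h kd replicate 3 (0.50, adjusted p = 0.0409) or 240 h ctrl replicate 3 (0.49, adjusted p = 0.0452). For Pou5f1 it was -0.29 (adjusted p = 0.161), and without 48 h kd replicate 2 it was -0.39 and passed (adjusted p = 0.0224). A second interaction, added after the data were seen, set the 240 h effect against the 72 h effect. No factor was called there either, beside 11% of genes, and 4 passed by adjusted p, beside 40.1% of genes. The difference was -0.43 for Sox2 (adjusted p = 0.000116, SE 0.05), -0.22 for Nanog (adjusted p = 0.00184, SE 0.04), 0.30 for Sall4 (adjusted p = 0.000485, SE 0.04) and 0.45 for Utf1 (adjusted p = 0.00369, SE 0.09). Pou5f1 was at -0.03 (adjusted p = 0.807). At an unadjusted limma p under 0.05 there were 3 factors in the first interaction and 4 in the second, beside 29.2% and 48.6% of genes. Voom called none in either, beside 10.4% and 18.1%.

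Ratios of reads between factors within a library are free of any scaling between libraries, and were looked at after the levels were seen. They are given per exonic base, with no p-value, since exact permutation of 3 and 3 libraries cannot give less than 0.1. The Utf1 to Pou5f1 ratio was 0.582 ± 0.00596 in 48 h ctrl and 0.449 ± 0.0146 in 48 h kd (mean ± SD, n = 3). It was 0.529 ± 0.0154 in 72 h kd, and at 240 h it was 0.527 ± 0.0183 in ctrl against 0.670 ± 0.0137 in kd. The kd range lay below that of ctrl at 48 h and 72 h and above it at 240 h, with no overlap at any time. In 48 h kd the ratio varied by 3.24% between libraries (coefficient of variation), whereas the FPKM of Utf1 varied by 12.1% and that of Pou5f1 by 11.8%. Both were lowest in replicate 2 of that group, the library with the most mitochondrial reads, and the part of that library's quality in their levels was not tested.

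Nanog and Sall4 varied in opposite directions over the 15 libraries (Pearson's r of log2(FPKM + 0.1) = -0.851). A spread of their ratio over the groups therefore follows from their levels. The Nanog to Sall4 ratio was 3.96 ± 0.0413 in 48 h ctrl, 3.91 ± 0.0173 in 48 h kd and 5.05 ± 0.0611 in 72 h kd. It was 2.97 ± 0.0194 in 240 h ctrl and 2.64 ± 0.134 in 240 h kd. Only the 48 h groups overlapped. How often ratios of other gene pairs separate these groups was not tested. The Sox2 to Pou5f1 ratio was 0.568 ± 0.0141 in 48 h ctrl, 0.392 ± 0.0451 in 48 h kd and 0.651 ± 0.0137 in 72 h kd, with no overlap between these groups. It was 0.562 ± 0.0669 in 240 h ctrl and 0.487 ± 0.0215 in 240 h kd, which overlapped. The Nanog to Pou5f1 and Sall4 to Pou5f1 ratios likewise overlapped between ctrl and kd at 240 h but not at 48 h or 72 h. For Nanog to Sox2, 72 h kd overlapped 48 h ctrl, and the groups did not overlap at 48 h or 240 h.

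**Figure D3:**
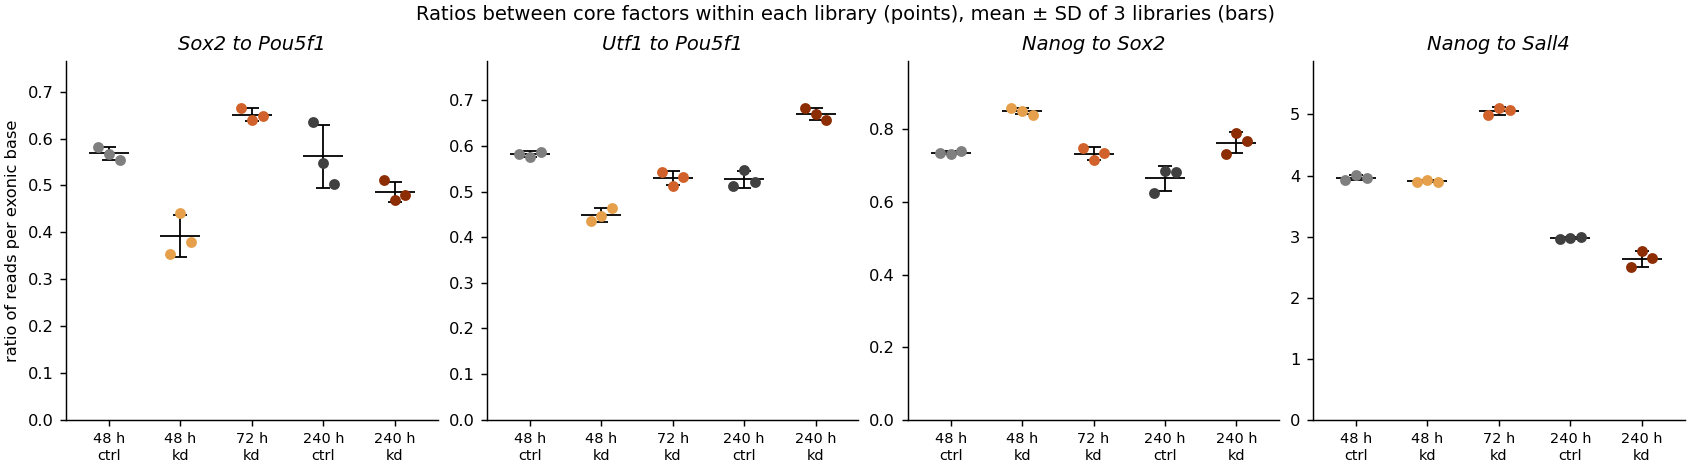
Ratios of reads per exonic base between pairs of core factors, computed within each of the 15 libraries. Points are libraries, horizontal bars are means of 3 libraries and vertical bars are SD, with axes starting at 0. The Utf1 to Pou5f1 ratio is lowest in 48 h kd and highest in 240 h kd, and the Nanog to Sall4 ratio is highest in 72 h kd.

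Genes of similar pattern were to be named for called factors. None was called, so they are given for all 5, a choice made after the values were seen. Likeness is Pearson's r of log2(FPKM + 0.1) over the 15 libraries among 8532 named protein-coding genes, and the libraries share 5 groups. Among those nearest to Sall4 were Fasn (r = 0.986) and Fubp3 (0.985). Nearest to Nanog were Gatd1 (0.968), Msmo1 (0.966) and Cnn3 (0.966), and among those nearest to Sox2 were Galnt2 (0.962) and St14 (0.957). Utf1 was nearest to Mrpl17 (0.950), Rnf187 (0.940) and Ubxn1 (0.919), and Pou5f1 to Mrpl39 (0.928), Sod2 (0.920) and Stmn1 (0.909).

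Of 22 partners that work with the core factors in embryonic stem cells, all were tested, none was called higher at any time, and 2 were called lower at 48 h, 3 at 72 h and 5 at 240 h. Over all genes, 1.99% were called higher and 2.01% lower at 48 h, 8.23% higher and 5.3% lower at 72 h, and 4.79% higher and 4.12% lower at 240 h. At an unadjusted limma p under 0.05, 2, 4 and 4 partners were higher, beside 15.8%, 31.9% and 22.7% of all genes, and 10, 11 and 11 lower, beside 16.1%, 28.9% and 22.2%. Voom called 0, 1 and 0 partners higher, beside 4.28%, 12.4% and 9.87% of genes, and 2, 3 and 5 lower, beside 4.94%, 10.2% and 8.15%. The partners' median log2 fold change was -0.09, -0.13 and -0.08, beside 0.006, 0.009 and -0.002 for all genes. Without 48 h kd replicate 2 their 48 h median was -0.04, and 2 were still called lower. Klf4, a zinc-finger factor downstream of LIF signalling, fell at all 3 times. The 48 h ctrl mean was 89.2 ± 1.36 FPKM, against 48.8 ± 1.46 for 48 h kd and 52.5 ± 1.72 for 72 h kd, and the 240 h ctrl mean was 83.4 ± 3.92 FPKM, against 36.1 ± 2.14 for 240 h kd (mean ± SD, n = 3). Its log2 fold change at 240 h, -1.20 (adjusted p = 0.000124, SE 0.06), was the largest fall of the partners there. Tbx3, a T-box factor, had the largest falls at 48 h (-1.28, adjusted p = 0.000832, SE 0.04) and 72 h (-1.09, adjusted p = 9.29e-05, SE 0.06) and fell at 240 h too (-1.10, adjusted p = 0.000285, SE 0.07). The other partners called were named after their values were seen. They were the nuclear receptor Nr0b1 at 72 h (-0.62), and at 240 h the nuclear receptor Esrrb (-0.78), the PR-domain factor Prdm14 (-1.10) and Zfp42 (Rex1), a zinc-finger marker of naive cells, at -0.58, the edge of the threshold.

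Of 20 genes known as targets of the core factors or as stem cell markers, none was called at 48 h, 3 were higher at 72 h, and 3 were higher and 2 lower at 240 h. At 48 h voom called none of them either, and 8 were higher and 3 lower at an unadjusted limma p under 0.05, shares of all genes being those given for the partners. Their median log2 fold change was 0.08, 0.20 and 0.16, and without 48 h kd replicate 2 the 48 h median was 0.11. The largest rise at 72 h was that of Lefty1, an inhibitor of Nodal signalling, at 1.06 (adjusted p = 0.000122, SE 0.06). Lefty1 was at -0.12 at 48 h (adjusted p = 0.406) and fell at 240 h (-0.30, adjusted p = 0.0369). At 240 h Pim2, a serine/threonine kinase, had the largest rise (1.30, adjusted p = 0.000438, SE 0.09), and Cdh1, E-cadherin, the largest fall (-0.94, adjusted p = 7.03e-05, SE 0.03). Named after their values were seen, the others were Dppa5a (1.04) and the junction protein Jam2 (0.64) at 72 h, and Dppa2 (0.75), Dppa3 (0.70) and the Nodal inhibitor Lefty2 (-0.84) at 240 h. Lefty2 had fallen at 48 h (-0.34, adjusted p = 0.00967) and risen at 72 h (0.42, adjusted p = 0.000880), so both Lefty genes were higher than ctrl at 72 h and lower at 240 h. Dppa5a averaged 765 ± 34.3 FPKM in 48 h ctrl against 1569.6 ± 32.7 for 72 h kd (mean ± SD, n = 3).

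**Figure D4:**
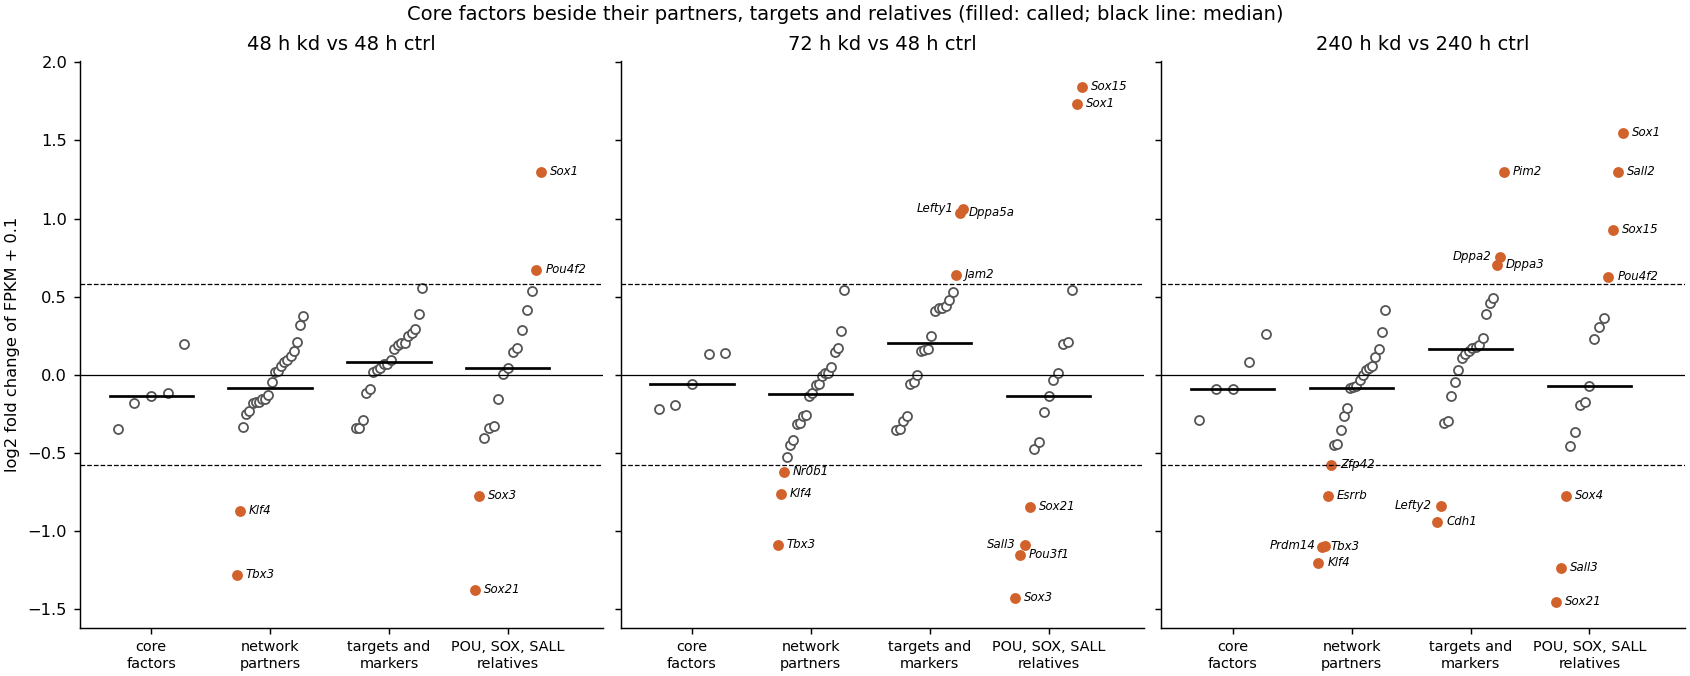
Log2 fold change of FPKM + 0.1 of the 5 core factors, 22 network partners, 20 targets and markers and 15 tested POU, SOX and SALL relatives in the 3 knockdown comparisons. Filled points with names are called genes, dashed lines mark ±0.58 and black lines are medians. The core factors lie inside the dashed lines in every panel, while members of the other lists reach from -1.46 to 1.84.

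The family relatives of Pou5f1, Sox2 and Sall4 included called genes at each time. Of 20 relatives, 15 were tested, and 2 were called higher and 2 lower at 48 h, 2 higher and 4 lower at 72 h, and 4 higher and 3 lower at 240 h. Over all genes, 1.99%, 8.23% and 4.79% were called higher at these times, and 2.01%, 5.3% and 4.12% lower. At an unadjusted limma p under 0.05, 5, 5 and 7 relatives were higher and 6, 7 and 5 lower. Voom called 3, 2 and 5 of 18 higher and 3, 5 and 4 lower. Shares of all genes for these 2 rules are those given for the partners. The relatives' median log2 fold change was 0.04, -0.14 and -0.08, and without 48 h kd replicate 2 the 48 h median was 0.02. Sox1, of the same SOX subgroup as Sox2 and a neural plate gene, rose at all 3 times, by 1.30 at 48 h (adjusted p = 0.00124, SE 0.08), 1.73 at 72 h (adjusted p = 6.32e-05, SE 0.08) and 1.55 at 240 h (adjusted p = 8.8e-05, SE 0.06). Its level was 4.69 ± 0.414 FPKM in 48 h ctrl and 15.8 ± 1.02 FPKM in 72 h kd. Sox15, which is expressed with Sox2 in embryonic stem cells, averaged 7.29 ± 0.284 FPKM in 48 h ctrl against 26.4 ± 1.20 for 72 h kd (log2 fold change 1.84, adjusted p = 1.79e-05) and was higher at 240 h as well (0.93, adjusted p = 0.00199).

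Sox3, the third SOX gene of the subgroup, fell at 48 h (-0.78, adjusted p = 0.0270) and 72 h (-1.43, adjusted p = 0.000176) and rose at 240 h, below the fold threshold (0.30, adjusted p = 0.0221). Without 48 h kd replicate 2 the 48 h call of Sox3 was lost (-0.68, adjusted p = 0.0589), and 1 relative in place of 2 was called lower. Sox21, a SOX factor that counteracts that subgroup in neural cells, fell at all 3 times (-1.38, -0.85 and -1.46; adjusted p = 0.0106, 0.000708 and 0.000310). Sox4 fell at 240 h (-0.78, adjusted p = 0.000305). Among the relatives of Pou5f1, Pou4f2, a retinal neuron factor, rose at 48 h (0.67) and 240 h (0.63), and Pou3f1 (Oct6), a factor of the epiblast and of glia, fell at 72 h (-1.15, adjusted p = 0.000114). Of the relatives of Sall4, Sall3 fell at 72 h (-1.09) and 240 h (-1.24), and Sall2 rose at 240 h (1.30, adjusted p = 0.000102).

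Markers of other cell types were followed beside the factors, as summed FPKM. Fibroblast markers summed to 1.65 to 2.29 FPKM in the ctrl, 48 h kd and 72 h kd libraries and to 3.05 to 3.65 in 240 h kd, mesoderm markers to 1.92 to 2.73 and then at least 3.79, and trophoblast markers to 1.26 to 2.26 and then 3.40 to 4.06. Primitive endoderm markers summed to 0.528 to 1.35 FPKM in those libraries and to 1.40 to 1.45 in 240 h kd. No library reached 5 FPKM for any of these 4 lists, and few of their genes reached the minimum level to be tested. At 240 h the genes called higher were Col1a1 (means of 0.261 FPKM in ctrl and 0.923 in kd) and Twist1 (log2 fold change 0.70) of 3 fibroblast markers tested, Snai1 (1.07) of 2 mesoderm markers and Esx1 (1.24), the 1 trophoblast marker tested. Esx1 was called higher at 72 h too (1.29), no endoderm marker reached the minimum in a comparison of kd with ctrl, and no gene of the 4 lists was called lower in one. These 4 genes were named after their values were seen. With voom, which tested more of these low genes, 3 of 6 fibroblast, 3 of 5 mesoderm, 4 of 8 trophoblast and 5 of 9 endoderm markers were called higher at 240 h, beside 9.87% of all genes, and 0, 1, 1 and 1 lower, beside 8.15%. The mesoderm and trophoblast lists share Eomes and Hand1 (mean of 0.856 FPKM in 240 h kd), so their sums and counts are not independent. Defining markers were listed at 0 in every library of some groups, such as Tpbpa and Prl3d1 of the trophoblast in all 5 groups, Lum and Postn of fibroblasts in both ctrl groups and 48 h kd, and Ttr and Fxyd3 of the endoderm in 48 h ctrl and 240 h kd. Neural progenitor markers summed to 23.1 to 25.0 FPKM in ctrl, 30.0 to 34.1 in 48 h kd, 30.3 to 32.7 in 72 h kd and 37.4 to 38.5 in 240 h kd. Sox1, with Tubb3, held most of that sum. Of the 5 neural markers tested in each knockdown comparison, 2 were called higher at 48 h, 3 at 72 h and 3 at 240 h, and 1 was called lower, Tubb3 at 72 h. Over all genes, 1.99%, 8.23% and 4.79% were called higher at these times, and 2.01%, 5.3% and 4.12% lower. Without 48 h kd replicate 2, 1 of 4 neural markers tested was called higher at 48 h. Dll1, a Notch ligand, rose at all 3 times (log2 fold change 0.69, 0.91 and 0.82) with all 15 libraries, and fell under the minimum level at 48 h without that library. Nes went the other way at 48 h (-0.43, adjusted p = 0.0358) and 72 h (-0.48, adjusted p = 0.00786), short of the fold threshold. At 240 h Nes was called higher (0.64). Voom called 2 of 6, 4 of 7 and 4 of 7 neural markers higher, beside 4.28%, 12.4% and 9.87% of genes. It called 1, 2 and 0 lower, beside 4.94%, 10.2% and 8.15%. Primed epiblast markers summed to 46.9 to 51.9 FPKM in ctrl, 36.1 to 37.4 in 48 h kd, 34.96 to 37.1 in 72 h kd and 55.9 to 58.0 in 240 h kd. Of the 6 primed markers tested at 48 h 2 were called lower, of 6 at 72 h 1 higher and 4 lower, and of 7 at 240 h 3 higher. Voom called 0 of 8, 1 of 8 and 5 of 10 higher, and 4, 6 and 1 lower. Shares of all genes are those given for the neural markers. The list was not uniform. At 72 h Nodal was the gene called higher (1.02). At 240 h Dnmt3a (1.44), Dnmt3b (0.89) and Nodal (0.82) were called higher, while Zic2 was lower, short of the fold threshold (-0.48, adjusted p = 0.000491). The part of such cells in the levels of the core factors was not tested.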

How the data were processed

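The authors sequenced single-end reads, aligned them to mm10 (GRCm38.p6) with STAR 2.7.0c, made gene counts in R 4.0.3 and used DESeq2 1.30.0 for their tests, per the labels and the study's methods. The deposited values are FPKM, 1 per gene and library. Multiplied by the whole gene span and 1 total per library, they gave whole reads (tolerance 0.001) for all values, so depth was recovered.

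FPKM, not counts, entered the main test: limma 3.58.1 in R 4.3.3 (lmFit, eBayes with trend, two-sided) on log2(FPKM + 0.1), for genes that averaged 0.5 FPKM or more over the libraries entered, with Benjamini-Hochberg adjustment over all of them. Calls needed an adjusted p under 0.05 together with a log2 fold change beyond ±0.58, as in the study. The test was run on simulated counts first. Of the listed genes, 96.5% matched GENCODE M21. The lists of partners, targets, relatives and markers were written from general knowledge.

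The members and lists were chosen with earlier results of these data known. Genes named are Smarcb1, the members, list genes called alike at 48 h, 72 h and 240 h, the largest called rise and fall among partners and among targets at each time, called relatives, and the 3 genes most similar to a called member. Some genes of similar pattern are not reported here. Alternatives were pseudocounts of 1 and 0.01, FPKM minima of 0 and 2, TPM, median centring, quantile normalization, removal of a GC and span trend, 1 fit of 15 libraries, no variance trend, the replicate number as a block, voom on recovered reads (mean of 10 or more), no fold threshold, another control at 72 h, and each library left out. Python 3.11.15, numpy 2.4.6, pandas 2.3.3 and matplotlib 3.10.9 were used for tables and plots. The reads carry no molecular identifiers, and the labels give no batch.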

Additional observations from a re-analysis of the deposited data

Results flagged for a closer look

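The knockdown effect of several core factors differed between times by a test of the difference itself (limma, adjusted over all genes), although none passed the fold threshold. For Sall4 the effect at 240 h exceeded that at 48 h by 0.20 on the log2 scale (adjusted p = 0.0160), so 1 of 5 factors passed, beside 15.6% of all genes. The effect at 240 h minus that at 72 h, a test added after the data were seen, was -0.43 for Sox2, -0.22 for Nanog, 0.30 for Sall4 and 0.45 for Utf1 (adjusted p = 0.000116, 0.00184, 0.000485 and 0.00369), so 4 of 5 factors passed, beside 40.1% of all genes. The effect at 72 h minus that at 48 h, which share their control libraries, was 0.48 for Sox2 (adjusted p = 0.00170) and 0.27 for Nanog (adjusted p = 0.00497), so 2 of 5 factors passed, beside 35.5% of all genes. In each of these differences the groups behind it had 3 libraries. The 72 h cells were set against 48 h ctrl, so age in culture and knockdown time cannot be told apart in the differences that involve 72 h.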

How the results depend on the processing

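In 157 alternative fits, 1 factor was called in only 1: Utf1, with the GC and span trend removed, for the knockdown effect at 240 h minus 72 h (0.58; members called 1 against 0). With no fold threshold the count of called factors was 1 at 48 h, 4 at 72 h, 1 at 240 h, 2 between ctrl groups, 2 between 72 h kd and 48 h kd, 4 between 240 h kd and 72 h kd, 1 for 240 h minus 48 h and 4 for 240 h minus 72 h.

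By adjusted p alone, the 48 h count of 1 became 0 with no FPKM minimum and 0 with the replicate block, 2 with voom on recovered reads and 3 in 1 fit of 15 libraries, and 0 to 2 when a library was left out. The 72 h count of 4 became 2 with no minimum, 5 with the GC and span trend removed, and 3 in 1 fit of 15 libraries, with 240 h ctrl as control or without 72 h kd replicate 3. The 240 h count of 1 became 2 with a minimum of 2 FPKM, with quantile normalization and with voom, and 3 in 1 fit of 15 libraries, and lay at 1 to 2 with a library left out. Between ctrl groups, 2 became 3 with voom, 1 with TPM and 0 with no minimum, median centring, the GC and span trend removed, no variance trend, the replicate block or any library left out. Between 72 h kd and 48 h kd, 2 became 4 with the GC and span trend removed and in 1 fit and 3 with quantile normalization or voom, and lay at 2 to 5 with a library left out. Between 240 h kd and 72 h kd, 4 became 5 with quantile normalization, the replicate block, voom or without 72 h kd replicate 1. For 240 h minus 48 h, 1 became 3 with quantile normalization or voom and 2 with the GC and span trend removed or in 1 fit, and lay at 1 to 2 with a library left out (2 without 48 h kd replicate 2 or 3 or 240 h ctrl replicate 3). For 240 h minus 72 h the count was 4 in every alternative.

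Of 785 alternative log2 fold changes of the factors, 16 changed sign. With 240 h ctrl as control for 72 h, Pou5f1 was at 0.00073 and Utf1 at 0.0082. Between ctrl groups Pou5f1 was at 0.053 with TPM and 0.076 with quantile normalization, and Sox2 at 0.030 and 0.022. From 48 h kd to 72 h kd Utf1 was at 0.046 with TPM. From 72 h kd to 240 h kd Pou5f1 was at 0.093 with quantile normalization and 0.0035 with the GC and span trend removed, and for 240 h minus 72 h at 0.0084 and 0.060. With a library left out, Pou5f1 lay between -0.12 and 0.0031 between ctrl groups, Utf1 between -0.12 and 0.048 from 48 h kd to 72 h kd, and Pou5f1 between -0.092 and 0.031 for 240 h minus 72 h. The cause of these changes was not tested. Over all genes, voom called 1485 in place of 456 at 48 h, 3642 in place of 1548 at 72 h, 2998 in place of 1016 at 240 h and 220 in place of 54 between ctrl groups, while the lowest alternatives gave 208 and 745 (pseudocount 1), 453 (minimum of 2 FPKM) and 0 (replicate block). With a library left out, the ctrl comparison called 2 to 10 genes. The replicate block, in which same-numbered libraries are paired, gave Sox2 an adjusted p of 0.0730 at 48 h, with the log2 fold change at -0.35. Same-numbered libraries deviated together with correlations between -0.0993 and 0.119 in 18 pairs, and a differently numbered pair reached 0.207. Such correlations cannot tell whether same-numbered libraries shared a culture or a batch, and the labels do not say. Counting error is small at 3443 or more reads per factor and library, and 3 libraries per group limit the precision.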
